A study of Drosophila melanogaster with 4 samples.

Results

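The regions described here are the 1886 entries of the whole-series list of H3K27me1 enrichment that lie on the interior of chromosome arm 3R of Drosophila melanogaster. They were taken by position alone, as all regions of the arm whose midpoint fell between bases 2000001 and 25905053 of release 5, which leaves out 2 Mb at either end. They are 15.3% of the 12359 enriched regions of that list and 84.0% of the 2245 regions of the arm. H3K27me1 was mapped by chromatin immunoprecipitation and sequencing (ChIP-seq) with a rabbit polyclonal antibody from Millipore, and the chromatin came from wild-type Oregon-R animals at larval instar 3. The 2 ChIP replicates have a list each, with 1428 regions on this interior in replicate 1 and 1192 in replicate 2. The 2 input samples had no file analysed here, so no background can be set beside these values. The labels name no dissected tissue, so lower enrichment in all cells and enrichment in fewer cells cannot be told apart.

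H3K27me1 is the monomethylated state of lysine 27 of histone H3. In flies Polycomb repressive complex 2, through its enzyme E(z), methylates this lysine, and the trimethylated state marks genes silenced by Polycomb. In mouse embryonic stem cells the monomethylated state lies over the bodies of transcribed genes and is separate from the trimethylated one. Arm 3R carries both Hox gene complexes of the fly, the Antennapedia complex toward the centromere and the bithorax complex near the middle of the arm, and both are classic Polycomb targets. Gene positions on release 5 were not used here, so no region or stretch below is tied to a gene.

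At the edge toward the centromere, the first region inside was 1.51 kb wide with a score of 0.40, and the last one outside was 1.30 kb wide with a score of 0.46. At the edge toward the telomere, the last region inside was 1.93 kb wide with a score of 0.34, and the first one outside was 2.53 kb wide with a score of 0.44. Neither edge cut through a long block. The score is the authors' own value for a region, on a scale that the files do not state, and it is used only to describe and rank regions within a list.

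H3K27me1 regions covered 18.1% ± 2.9 of the 3R interior in the replicates (SD, n = 2). Replicate 1 covered 4.81 Mb, or 20.1% of the interior, replicate 2 covered 3.83 Mb, or 16.02%, and the whole-series list covered 6.85 Mb, or 28.6%. Per Mb there were 78.9 regions in the whole-series list, 59.7 in replicate 1 and 49.9 in replicate 2. The whole-series list was thus denser than either replicate, and replicate 1 was denser than replicate 2. Regions that scored no lower than the median of their list covered 11.5% in the replicate mean, at 23.2 per Mb. Sequencing depth is unknown, so its part in these gaps was not tested.

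Most regions of the 3R interior were a few kilobases wide. The median width was 2217 bp in the whole-series list, with the middle 50% of regions between 1442 and 4130 bp, while replicates 1 and 2 had medians of 2272 and 2239 bp. The whole-series list held 116 regions of 10 kb or more, against 52 for replicate 1 and 34 for replicate 2. These long blocks were few, but they held 27.4% of the bases of the 1886 regions. Median scores were 0.38 for the whole-series list, 0.55 for replicate 1 and 0.54 for replicate 2. Width and score went together across regions (Spearman coefficients of 0.62, 0.75 and 0.70 in the same order), given as a description because a score and a width come from the same reads.

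Spacing along the arm was very uneven. The 1885 gaps between neighbouring regions had a median of 2.53 kb and a mean of 9.04 kb, and 581 of them (30.8%) were under 1 kb. At the other end, 67 gaps of 50 kb or more took up 23.9% of the interior, and 14 gaps of 100 kb or more took up 9.24%. Many gaps were thus short, while a small number of long empty intervals took up a large part of the interior. The lengths of neighbouring gaps correlated only weakly, with a Spearman coefficient of 0.18. In replicate 1 there were 97 gaps of 50 kb or more, which took up 40.9% of the interior, and in replicate 2 there were 112, which took up 52.4%.

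The interior was then read in 239 full steps of 100 kb, counted from its first base. In the whole-series list the number of regions per step was 0 to 21 with a median of 8, and its variance was 2.31 times its mean. The covered share of a step was 0% to 90.2% with a median of 23.9%, and the middle 50% of steps lay between 13.2% and 42.8%. In replicate 1 the median was 15.5% and the highest 79.8%, and in replicate 2 the median was 11.1% and the highest 86.2%. Each list therefore held nearly empty and nearly filled steps on the same arm. Steps under 5% covered numbered 30 for the whole-series list, 48 for replicate 1 and 69 for replicate 2, and steps at least 50% covered numbered 44, 12 and 9 in the same order.

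**Figure D1:**
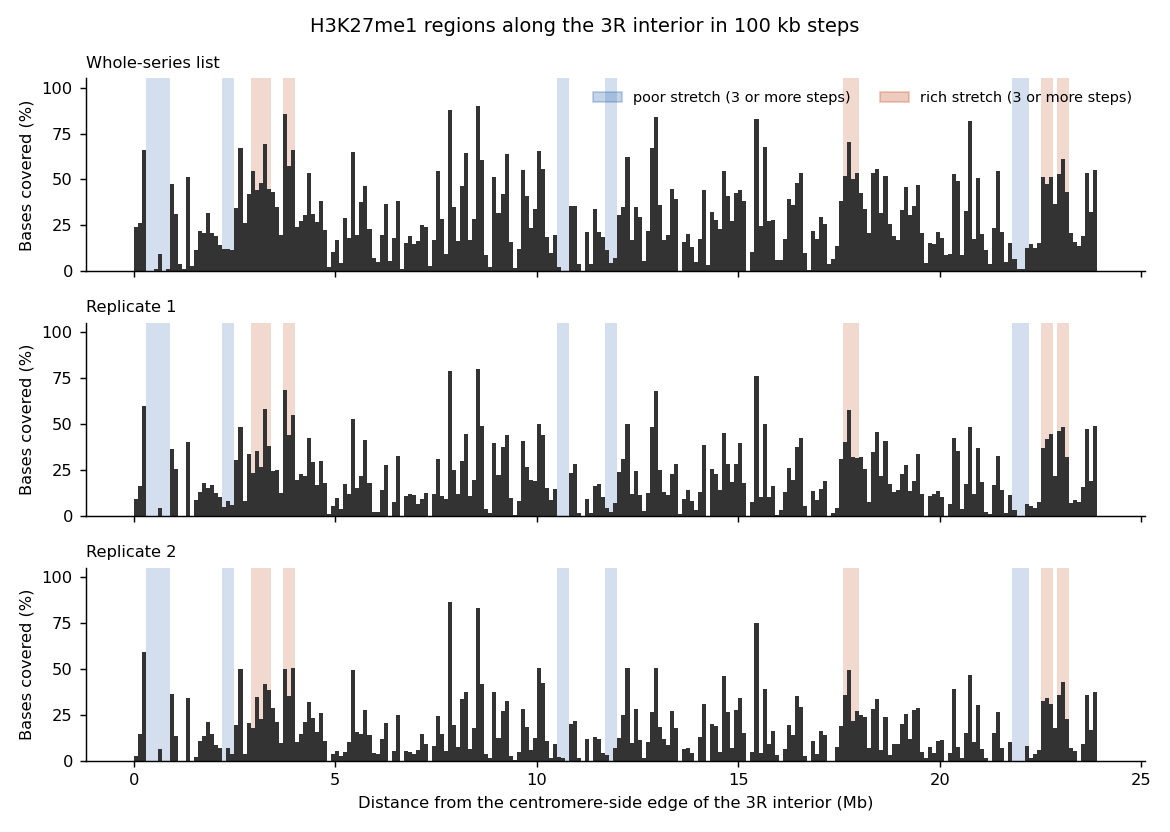
Covered share of each 100 kb step (vertical axis, percent of bases) against distance from the centromere-side edge of the 3R interior (horizontal axis, Mb), in the whole-series list, replicate 1 and replicate 2. Bars are steps, and shading marks runs of at least 3 poor (blue) or rich (orange) steps; steps of high and low cover occur along the whole arm, and the profiles of the replicates rise and fall together.

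Cover changed over short distances, although direct neighbours were somewhat alike. Across steps, the covered share in the whole-series list correlated with that of the next step with a Spearman coefficient of 0.36 (238 pairs), and with that of the step 200 kb away with a coefficient of 0.040 (237 pairs). Replicate 1 gave 0.34 and 0.036 at these distances, and replicate 2 gave 0.29 and -0.0021. At 300 kb the coefficients were 0.13, 0.11 and 0.13 in the whole-series list and replicates 1 and 2 (236 pairs). The coefficient was thus highest for direct neighbours and lower, though not steadily so, farther away. These coefficients are descriptions of neighbouring steps on 1 arm. The median difference between neighbouring steps was 14.2 percentage points, and 49 of 238 pairs differed by 30 points or more.

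Cover did not rise or fall steadily along the interior. In 5 equal parts of 4.78 Mb, from the centromere side to the telomere side, the replicates covered 19.8% ± 2.8, 17.8% ± 2.4, 15.5% ± 2.8, 20.5% ± 3.5 and 16.8% ± 3.0 (SD, n = 2). Much of each SD was the higher level of replicate 1, and within each replicate the parts had the same order. The fourth part was covered at 23.0% in replicate 1 and 18.0% in replicate 2, and the middle part at 17.5% and 13.6%. The middle part was the least covered in each of the 3 lists. Whole-series region density was also lowest there, at 69.9 per Mb, and highest in the next part toward the telomere, at 90.6 per Mb. Median scores differed little, with whole-series values of 0.37 to 0.40.

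The replicates ranked the steps alike. Their covered shares correlated across the 239 steps with a Spearman coefficient of 0.95, and their numbers of regions with a coefficient of 0.87, as descriptions, since steps are neighbours and the libraries share the strain and the antibody. Replicate 1 covered more than replicate 2 in 188 steps, less in 31 and the same in 20. The order of steps was shared, while the level was higher in replicate 1 in most steps. The median difference was 3.26 percentage points.

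**Figure D2:**
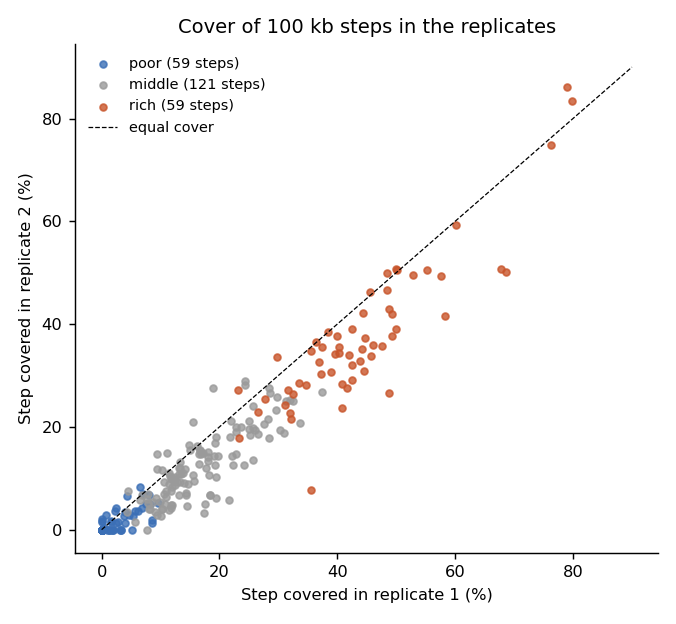
Covered share of each of the 239 steps in replicate 1 (horizontal axis, percent) and replicate 2 (vertical axis, percent), with points coloured by whether the step is among the 59 least covered (poor), the 59 most covered (rich) or the rest in the whole-series list; the dashed line is equal cover. Points follow the line and lie mostly below it, and the step with 35.5% in replicate 1 and 7.67% in replicate 2 stands apart.

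Steps ranked in 1 replicate were also read in the other, so that ranking and reading came from different libraries. The 59 least covered steps of replicate 1 were covered at 1.67% on average in replicate 2, against 37.5% for its 59 most covered steps. The 59 least covered steps of replicate 2 were covered at 2.90% in replicate 1, against 43.8% for the 59 most covered. The ratio of poor to rich steps was 0.055 ± 0.016 (SD, n = 2 directions). Both directions use the same 2 libraries with their roles swapped, so this SD does not measure the spread of replicates. The ratio depended on the step chosen, with 0.023 for steps of 50 kb and 0.13 for steps of 200 kb. All 59 poor steps of replicate 1 lay below the median step of replicate 2, and 58 of its 59 rich steps lay above it. Of the 59 poor steps of 1 replicate, 50 were also among the 59 poor steps of the other, and 50 rich steps were shared likewise.

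The step that differed most between the replicates was 3R from 22400001 to 22500000, with 35.5% covered in replicate 1 and 7.67% in replicate 2. It held 17 regions of the whole-series list with a median width of 1658 bp, of which 10 overlapped replicate 1 alone, 6 neither replicate and 1 both. The steps from 14800001 to 14900000 (48.7% and 26.5%) and from 5700001 to 5800000 (68.7% and 50.1%) followed, then those from 14900001 to 15000000 (67.8% and 50.7%) and from 20600001 to 20700000 (40.8% and 23.7%). In each of these 5 steps replicate 1 had the higher cover. The widest gap the other way was smaller, with 18.9% in replicate 1 and 27.6% in replicate 2 from 21300001 to 21400000.

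Poor steps had both fewer regions and narrower ones than rich steps. Cover is built from the number and the width of regions. Ranking by cover thus fixed in advance that poor steps had fewer regions, narrower ones or both. The values only describe how the difference divided between number and width. In the whole-series list, which also ranked these steps, the 59 poor steps held 166 regions and the 59 rich steps held 699, or 2.81 against 11.8 per step. Mean widths were 1902 bp in poor steps and 4928 bp in rich steps. Poor steps thus had 0.24 times as many regions as rich steps, with 0.39 times the mean width and 0.094 times the cover. Poor steps, at most 12.7% covered, had little room for a region of 10 kb or more and held none, and rich steps held 83 of the 116. Scores over all widths hardly followed, with medians of 0.379 in poor steps, 0.372 in the steps between and 0.400 in rich steps. Within width classes the direction varied. Under 2 kb the medians were 0.364 in poor steps and 0.322 in rich steps. From 2 to under 5 kb they were 0.404 and 0.406, and from 5 to under 10 kb 0.514 (5 regions) and 0.553. Across steps the cover correlated with the number of regions with a Spearman coefficient of 0.82, with their median width at 0.59 and with their median score at 0.23.

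Poor and rich steps also differed in the share of regions that the replicates overlapped, as a description. The steps were ranked by the whole-series list, which contained nearly all replicate bases, and poor steps had little room for wide regions. The ranking thus made a difference of this kind likely, and it is no independent check. Of the 166 regions in poor steps, 31 (18.7%, 95% Wilson interval 13.5 to 25.3) overlapped both replicates, against 360 of 699 (51.5%, 47.8 to 55.2) in rich steps. Neither replicate overlapped 93 of the 166 (56.02%) and 177 of the 699 (25.3%). Width moved with this difference: 71.7% of the regions of poor steps were under 2 kb, against 34.2% in rich steps. Within a width class the shares lay closer together, and whether width accounts for the difference was not tested. From 2 to under 5 kb, 23 of 42 regions (54.8%, 39.9 to 68.8) in poor steps overlapped both replicates, against 148 of 254 (58.3%, 52.1 to 64.2) in rich steps. Under 2 kb the shares were 2.52% (0.86 to 7.15) and 5.02% (2.90 to 8.57). These intervals cover counting error alone and take the regions as independent, though they are neighbours on 1 arm. Their overlap within a width class does not show that the shares are equal.

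Rich steps were filled in different ways. The most covered step, from 10500001 to 10600000, had 90.2% of its bases in regions although only 5 regions had their midpoint there, and 79.1% of the step lay in regions of 10 kb or more. The next, from 9800001 to 9900000, was 87.6% covered with 7 regions, and 79.1% of it lay in such long regions. The steps from 5700001 to 5800000 and from 14900001 to 15000000 were 85.8% and 84.0% covered with 16 and 15 regions, and 32.5% and 30.8% of them lay in long regions. The last of the 5 most covered, from 17400001 to 17500000, was 83.1% covered with 10 regions. In the whole-series list a few long blocks filled most of the first 2 of these steps, and more numerous, mostly shorter regions filled the next 2. Replicates 1 and 2 had 12 and 11 regions in the first step and 8 and 6 in the second. They had 20 and 20 in the step from 5700001, and 21 and 15 in that from 14900001. For the 2 steps with the longest blocks, cover was 79.8% and 79.0% in replicate 1 and 83.3% and 86.2% in replicate 2. The 2 steps with many regions were covered at 68.7% and 67.8% in replicate 1 and 50.1% and 50.7% in replicate 2.

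Crowded steps without long blocks formed the other extreme. The step with the most regions, from 4900001 to 5000000, held 21 regions, none wider than 4.87 kb, and was 54.4% covered in the whole-series list. Its cover was 23.3% by replicate 1 and 17.8% by replicate 2, and 8 of its 21 regions overlapped neither replicate. Of the 59 rich steps, 6 had no base in a region of 10 kb or more. Over all 59, the median share of a step inside such long regions was 22.1%.

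**Figure D3:**
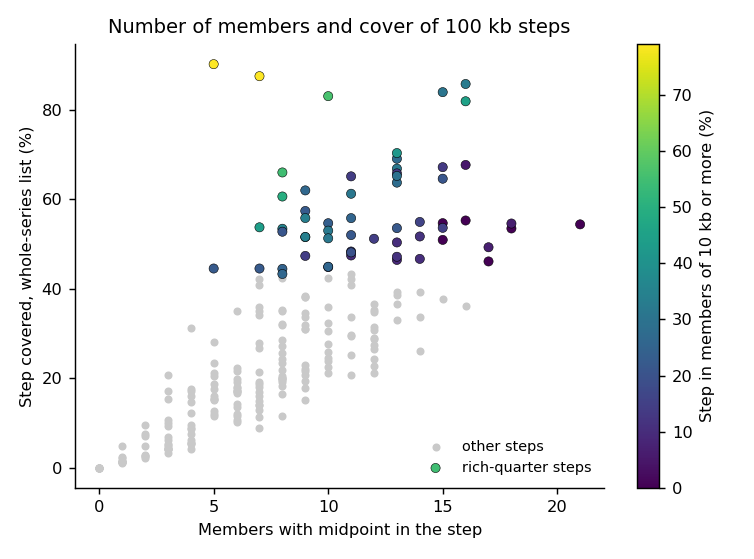
Number of regions with their midpoint in a step (horizontal axis) and covered share of the step in the whole-series list (vertical axis, percent) for the 239 steps; the 59 rich steps are coloured by the share of the step in regions of 10 kb or more. The 2 most covered steps have 5 and 7 regions and the highest share in long regions, and the step with 21 regions has none.

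Few rich or poor steps joined into long stretches. The 59 poor steps fell into 32 runs, of which 14 were a lone step and 5 had at least 3 steps. The 59 rich steps fell into 39 runs, of which 27 were a lone step and 5 had at least 3 steps. Runs of 3 or more held 19 poor and 18 rich steps.

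The longest poor stretch ran for 600 kb from 2300001 to 2900000. It held 5 regions, and its cover was 1.95% by the whole-series list, 0.71% by replicate 1 and 1.08% by replicate 2. Neither replicate had more than 2 regions in it. Those regions lay together: 2 neighbouring whole-series regions of 3.29 and 3.46 kb, from 2635022 to 2642126, were the only ones of the 5 to overlap a replicate, and both replicates marked them, at 68.3% and 57.6% of their bases in replicate 1 and 97.5% and 95.1% in replicate 2. On the sides the cover rose sharply. The 100 kb before the stretch were 66.02% covered in the whole-series list, 60.1% in replicate 1 and 59.4% in replicate 2, and held a block of 29.8 kb from 2243946 to 2273767 with a score of 0.88. Replicate 1 covered 99.7% of that block and replicate 2 covered 96.4%.

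The emptiest of the long poor stretches ran for 300 kb from 12500001 to 12800000. It held 2 regions, of 1114 and 1505 bp, and 0.87% of it was covered in the whole-series list. Replicate 1 had no region there. Replicate 2 had 2 regions, of 2062 and 1588 bp, and covered 1.22%, so no base was shared by the replicates.

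The other 3 poor stretches held more regions. The stretch from 23800001 to 24200000 had 9 regions and a cover of 2.41% by replicate 1 and 2.08% by replicate 2. The stretch from 13700001 to 14000000 had 11 regions, with 4.55% and 3.27% covered. The stretch from 4200001 to 4500000 had 17 regions, with 6.47% and 3.48% covered, and its 3 steps were 11.4% to 12.2% covered by the whole-series list. It was thus poor by a small margin, since the least covered steps reached up to 12.7% and the next began at 12.99%.

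The longest rich stretch ran for 500 kb from 4900001 to 5400000. It held 63 regions with a median width of 2457 bp, 4 of them of 10 kb or more, and its cover was 52.2% by the whole-series list, 36.4% by replicate 1 and 31.1% by replicate 2. A second rich stretch of 300 kb, from 5700001 to 6000000, followed 300 kb farther on. It was the most covered of the 5, with 69.7% in the whole-series list, 56.002% in replicate 1 and 45.3% in replicate 2, and only 3 of its 38 regions overlapped neither replicate. The regions in this second stretch were wider, with a median of 4448 bp.

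The remaining rich stretches lay in the part toward the telomere. The stretch of 400 kb from 19600001 to 20000000 held 50 regions and had a cover of 40.4% by replicate 1 and 33.4% by replicate 2. The stretches from 24500001 to 24800000 and from 24900001 to 25200000 held 28 and 27 regions. They were 41.2% and 42.3% covered in replicate 1 and 32.5% and 33.9% in replicate 2. They lay 100 kb apart and began 300 kb beyond the end of the poor stretch from 23800001 to 24200000.

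Of the 5 largest changes between neighbouring steps, chosen after the values were seen, 3 bordered a step with 54.8% to 79.1% of its bases in regions of 10 kb or more. At 9.8 Mb the cover was 9.45% on the centromere side and 87.6% on the telomere side in the whole-series list, with 9.55% and 79.0% in replicate 1 and 5.26% and 86.2% in replicate 2. At 17.4 Mb it was 10.8% and 83.1% in the whole-series list, with 7.54% and 76.2% in replicate 1 and 4.96% and 74.9% in replicate 2. At 2.3 Mb it was 66.02% and 0%, with 60.1% and 0% in replicate 1 and 59.4% and 0% in replicate 2. Each of these changes was present in both replicates. The low sides were nearly bound to be low there, since the whole-series list contained nearly all replicate bases, so this is no independent check of them.

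Long intervals without any region were mostly empty in the replicates as well. The whole-series list contained 98.5% of the bases of replicate 1 and 99.2% of those of replicate 2. Gaps chosen in that list were therefore nearly bound to be empty in the replicates, and this is no independent check. The longest gap between regions of the whole-series list was 296 kb, from 2287006 to 2583235, followed by 250.4 kb from 12558130 to 12808504 and 246 kb from 2644729 to 2890378. The next measured 183 kb, from 3115031 to 3297961. The remaining 6 gaps of the longest 10 were 123 to 137 kb long. Of these 10 gaps, 7 held no base of either replicate. The gap at 12558130 held 1 region of 1588 bp of replicate 2, with a score of 0.19. The gap from 8047541 to 8172890 held 1381 bp of replicate 1 and 55 bp of replicate 2, and the gap from 17185136 to 17308260 held 117 bp of replicate 1.

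In the replicate lists the longest gap was longer, and it lay at nearly the same place in both. Replicate 1 had none of its regions from 2286694 to 2635198 and replicate 2 none from 2286295 to 2635063, a length of 349 kb in each. Replicate 1 next had 333 kb from 12481035 to 12814501, and replicate 2 had 348 kb from 23794590 to 24142685, which overlapped a gap of 265 kb of replicate 1, from 23887443 to 24152619. Another gap found in both, of 274 kb, lay from 2642086 to 2916058 in replicate 1 and from 2642017 to 2915970 in replicate 2. The bounds of these 2 gaps differed by at most 399 bp between the replicates, whereas a bound of the overlapping gaps at 23.8 to 24.2 Mb differed by 92853 bp.

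Steps without any region of the whole-series list numbered 8, tied as the least covered. They lay at 2.3 to 2.5 Mb, 2.7 to 2.8 Mb, 12.6 to 12.8 Mb, 13.1 to 13.2 Mb, 15.5 to 15.6 Mb and 17.2 to 17.3 Mb. Replicate 1 covered 1.31% of the step at 15.5 Mb and replicate 2 covered 1.59% of the step at 12.6 Mb. The remaining 6 were at 0% in both replicates, which is no independent check, since the whole-series list contained nearly all replicate bases.

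Both replicates together covered 5.44 Mb of the interior and shared 3.20 Mb, a Jaccard index of 58.7%. Of the regions of replicate 1, 971 of 1428 (68.0%) overlapped a region of replicate 2, and 1025 of 1192 regions of replicate 2 (86.0%) overlapped one of replicate 1. The whole-series list contained 98.5% of the bases of replicate 1 and 99.2% of those of replicate 2. How the replicates entered that list is not given in the sources used here, so this containment is no independent check.

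Of the 1886 regions, 767 (40.7%, 95% Wilson interval 38.5 to 42.9) overlapped both replicates. A further 375 (19.9%) overlapped replicate 1 alone, 131 (6.95%) replicate 2 alone and 613 (32.5%, 30.4 to 34.7) neither. On the interiors of the other large arms the share in both was 36.6% (X) to 42.4% (2R). The share in neither was 29.3% (2R) to 37.1% (3L) there, so both shares of 3R lay within the range of the other arms. Among regions at least 1301 bp wide, the share in neither was 18.9%. By bases the picture differed: regions in both held 70.1% of all bases of the 1886 regions, and regions in neither held 12.7%. The median region in both was 4575 bp wide with a median score of 0.49. Those in neither had medians of 1280 bp and 0.34, and none was over 3.94 kb wide. The 767 regions in both were covered at a median of 87.0% by replicate 1 and 76.1% by replicate 2.

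Width separated these classes. Among 847 regions under 2 kb, 33 (3.90%, 2.79 to 5.42) overlapped both replicates and 561 (66.2%) overlapped neither. Among 680 regions of 2 to under 5 kb, 392 (57.6%, 53.9 to 61.3) overlapped both. Among 243 regions of 5 to under 10 kb, 227 (93.4%, 89.6 to 95.9) overlapped both, and among the 116 of 10 kb or more, 115 did (99.1%, 95.3 to 99.8). No region of 5 kb or more lay outside both replicates. Wide regions meet others more easily, and no region of a replicate list on this interior was under 1301 bp wide, whereas the whole-series list began at 1001 bp. Counted in bases, replicate 1 covered 25.6% of regions under 2 kb and 88.0% of those of 10 kb or more, and replicate 2 covered 13.2% and 80.5%.

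**Figure D4:**
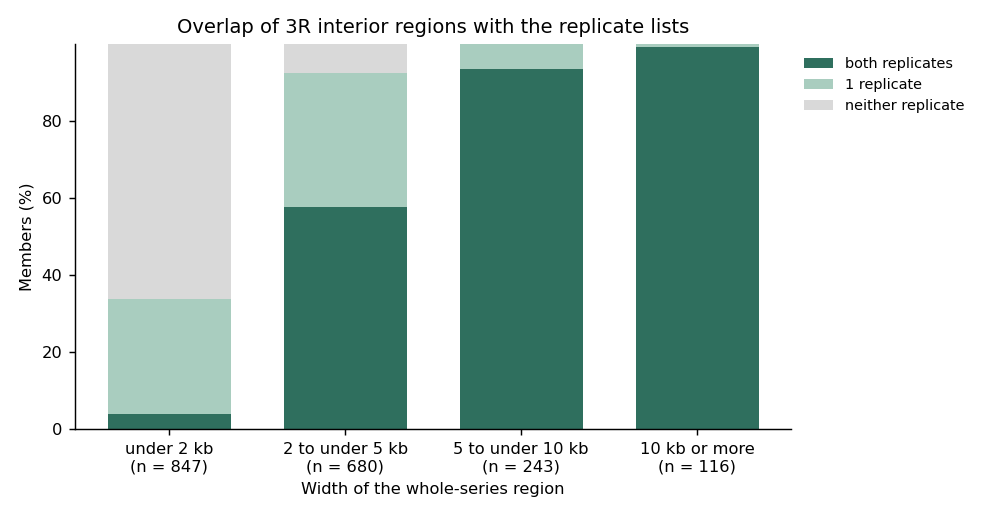
Share of the 1886 regions of the whole-series list that overlap both replicates, 1 replicate or neither by at least 1 bp (vertical axis, percent), in 4 width classes (horizontal axis, with the number of regions). Overlap with both was 3.90% under 2 kb and 99.1% at 10 kb or more.

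Scores separated the classes too, but not among narrow regions. In the highest-scoring 472 of the 1886 regions, 435 (92.2%, 89.4 to 94.3) overlapped both replicates, and in the lowest-scoring 472, 44 did (9.32%, 7.02 to 12.3). Among regions under 2 kb the order turned round. Of the 424 with a score at or above the median of that width class, 7 (1.65%, 0.80 to 3.37) overlapped both replicates, against 26 of the 423 with a lower score (6.15%, 4.23 to 8.85). The higher-scoring narrow regions were narrower still, with a median of 1202 bp against 1490 bp. The 17 regions that scored in the top 472 and overlapped neither replicate were all under 2 kb, with a median width of 1053 bp.

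The 2 highest scores of the interior belonged to such narrow regions. The highest, 3.16, was that of a region of 1001 bp from 4399819 to 4400819, and the next, 1.57, that of a region of 1022 bp from 16967411 to 16968432. Neither replicate covered a base of either. The replicate lists held no region under 1301 bp on this interior, so none as narrow as these. A further region of this kind, 1036 bp from 8961669 to 8962704, scored 0.90. Ranks 3 to 5 by score were wide blocks, of 42.5 kb with 1.03, 21.4 kb with 0.95 and 17.7 kb from 11118983 to 11136690 with 0.92. Each of these blocks was at least 88.5% covered in either replicate. The highest score in the replicate lists on this interior was 1.13 in replicate 1 and 1.02 in replicate 2, so 3.16 had no counterpart there.

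Each of the 10 longest blocks was at least 80.3% covered in either replicate, whereas 28 of all 116 regions of 10 kb or more were at least 90% covered in both. The longest, 42.5 kb from 9805783 to 9848266, scored 1.03 in the whole-series list and was 1 unbroken region in each replicate. The next longest, 41.1 kb from 10567633 to 10608751 and 34.04 kb from 10488752 to 10522790, were 90.7% and 86.2% covered in replicate 1 and 94.6% and 94.1% in replicate 2. Each was broken into several regions in the replicates, 6 in either replicate for the block of 41.1 kb and 5 in either for that of 34.04 kb. Their scores, 0.62 and 0.60, were lower than that of the longest block. A block of 29.9 kb from 9883514 to 9913428 lay 35.2 kb beyond the longest one, with 97.4% covered in replicate 1 and 96.5% in replicate 2.

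The others of the 10 longest measured 24.9 to 31.2 kb. A block of 31.2 kb from 24890101 to 24921312 held 7 regions of replicate 1 and 5 of replicate 2. A block of 28.7 kb from 17402302 to 17431039 was 1 region in each replicate, with 97.7% and 95.5% covered. Breaks inside blocks were common. Of the 116 regions of 10 kb or more, 99 (85.3%) held 2 or more regions of at least 1 replicate, as did 133 of 243 (54.7%) from 5 to under 10 kb and 51 of 1527 (3.34%) under 5 kb.

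At least 90% of the length was covered in both replicates for 95 regions (5.04%), with a median width of 6517 bp. The 10 of these with the highest lower replicate score began with the block of 42.5 kb, whose scores were 1.05 in replicate 1 and 1.00 in replicate 2. It was followed by 21.4 kb from 12107364 to 12128765, with 0.96 and 0.99, and by 11.2 kb from 5365473 to 5376684, with 0.93 and 0.96. The shortest of the 10 was 5.81 kb, from 5342610 to 5348422, with 0.97 and 0.90. Together with regions at 5245245 (8.92 kb) and 5365473, it lay in the rich stretch that began at 4900001, so 3 of the 10 came from that stretch. Over the 767 regions in both replicates, the highest scores in replicate 1 and replicate 2 had a Spearman coefficient of 0.69, given as a description.

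Of the 359 regions of 5 kb or more, 33 differed by 50 percentage points or more in cover between the replicates, and 32 of them were more covered in replicate 1. The median difference, without regard to sign, was 15.1 points. The 5 with the largest differences were covered by replicate 1 and not at all by replicate 2. Of these, a region of 16.4 kb from 20569569 to 20586012 was 84.6% covered in replicate 1 and was the only region of 10 kb or more outside replicate 2. A region of 5.19 kb from 20605639 to 20610830, 99.2% covered in replicate 1, lay 19.6 kb beyond it. The other 3, of 5.11 to 5.98 kb, lay at 19834945, 4896874 and 8986374.

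Set against the interiors of the other large arms, cut in the same way, the 3R interior was in the lower part of the range. Replicate 1 covered 20.1% of the 3R interior, against 18.5% on 2L, 24.9% on 2R, 21.7% on 3L and 24.5% on X. Replicate 2 covered 16.02% of the 3R interior, against 15.3% on 2L, 19.1% on 2R, 17.7% on 3L and 19.3% on X. In both replicates 3R stood above 2L and below the other 3. The covered share of 3R minus the mean of the other 4 was -2.26 percentage points in replicate 1 and -1.82 in replicate 2, or -2.04 ± 0.31 (SD, n = 2, exact two-sided sign-flip test p = 0.5, the smallest that 2 replicates allow). The difference kept its sign in 2 of 2 replicates and cannot pass a threshold in this design.

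**Figure D5:**
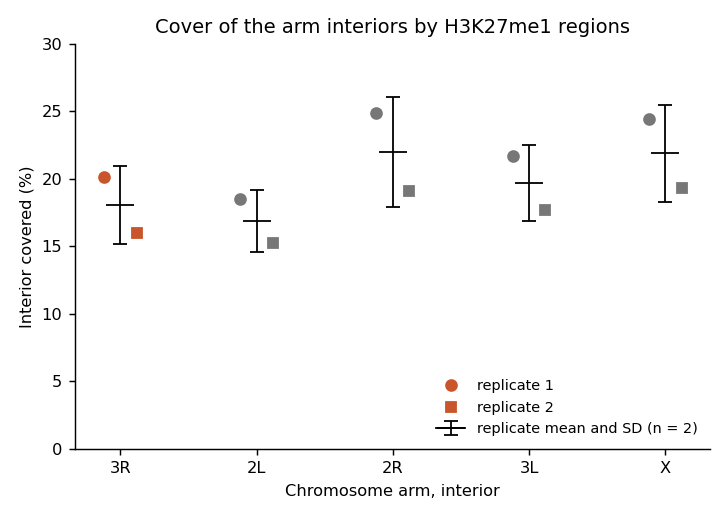
Share of the interior covered by H3K27me1 regions (vertical axis, percent) on 3R and on the other large arms (horizontal axis); circles are replicate 1, squares replicate 2, and bars the replicate mean with its SD (n = 2). The points of 3R, 20.1% and 16.02%, lie above those of 2L and below those of 2R, 3L and X.

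Region density on 3R also lay above that of 2L and below those of the other 3 in both replicates, with 59.7 per Mb on 3R in replicate 1, against a mean of 67.7 on the other 4 arms, and 49.9 in replicate 2, against 55.2. Median scores on 3R were 0.547 in replicate 1 and 0.536 in replicate 2, against means of 0.574 and 0.565 on the other 4 arms. The difference was -0.028 ± 0.001 (SD, n = 2, exact two-sided sign-flip test p = 0.5), and -0.0058 ± 0.0015 against the 3 other autosomal arms, so most of it lay in X. Among regions that scored no lower than the median of their list, the difference from the other 4 arms was -0.011. Median widths differed from the mean of the other 4 arms by -17.8 bp in replicate 1 and 13.4 bp in replicate 2, with no common direction. Against the 3 other autosomal arms they differed by -52.7 bp and -20.5 bp, both lower on 3R.

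In the SD of step cover and in the overlap of replicates the 3R interior had values close to those of the other arms. In the frequency of long empty intervals it was close to 2L alone. The SD of the covered share over 100 kb steps was 17.1 percentage points on 3R in replicate 1, against a mean of 16.4 on the other 4 arms, and 15.7 in replicate 2, against 15.1. The Jaccard index was 58.7% on 3R, against 54.1% to 59.1% on the others. Gaps of 50 kb or more numbered 28.0 per 10 Mb on 3R, against 30.0 on 2L, 16.9 on 2R, 20.0 on 3L and 14.1 on X. Steps under 5% covered in the whole-series list were 12.6% of steps on 3R, against 13.2% on 2L, 6.43% on 2R, 7.80% on 3L and 8.15% on X. Long empty intervals thus had a frequency on 3R near that of 2L and above those of 2R, 3L and X. The whole-series list gives 1 value per arm, so these last comparisons carry no test.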

How the data were processed

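H3K27me1 ChIP-seq lists of 2 ChIP replicates and 1 whole-series list were analysed, with no file of the 2 inputs. Coordinates are on FlyBase release 5, per the file headers, and lines are named as significant enrichment. Each carries an enrichment score, deposited by the authors with no scale stated. Bowtie 0.12.7 is named in the submitters' processing notes. How regions were called, at which threshold, and how inputs and replicates were used is not given in the sources used here. In the whole-series list 3 lines are named as depletion. They lie off 3R and were left out.

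Cover is the share of bases inside regions. Steps of 100 kb were counted from the first base of the interior, and the last step, of 5053 bp, was left out. Overlap means at least 1 bp. The labels do not say whether the replicates came from separate collections, so their spread may be technical. Depth is unknown. The regions named are the 10 longest, the 5 highest-scoring, the 10 with the highest lower score among those covered over at least 90% of their length by both replicates, the 3 highest-scoring in neither, the 5 of at least 5 kb that differed most between replicates, the 10 longest gaps and the extreme steps and runs. The regions, rules and tests were chosen with earlier results of these data known. Interval functions were tested on simulated data. Gene positions at hand are on release 6, so no gene or sequence is given. Python 3.11.15, numpy 2.4.6, scipy 1.17.1 and matplotlib 3.10.9 were used.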

Additional observations from a re-analysis of the deposited data

How the results depend on the processing

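The 18 results were computed again under 11 alternatives, and the signed ones kept their sign. Keeping regions that scored no lower than the median of their list gave a covered share of 11.5% (replicate mean) and 18.9% (whole-series list), step medians of 6.86% and 13.2%, densities of 23.2 and 30.3 per Mb, median widths of 3817 and 4570 bp and median scores of 0.66 and 0.51. They gave a longest gap of 386 kb, a replicate Jaccard index of 53.1%, a step correlation of 0.89, a poor-to-rich ratio of 0.035 and shares of 43.6% in both and 25.7% in neither. Joining regions within 1 kb gave 40.8 and 54.6 per Mb, 2823 and 2803 bp, a Jaccard index of 59.9%, a step correlation of 0.9495 and shares of 44.6% and 29.7%. A width minimum of 1301 bp gave 64.0 per Mb, 2645 bp, a score of 0.39 and a longest gap of 348 kb in the whole-series list, with shares of 50.1% in both and 18.9% in neither, because regions narrower than any replicate region were left out. With 50% of a region required to overlap, these shares were 33.0% and 35.4%. With 1 replicate left out they ran from 47.6% to 60.6% and from 39.4% to 52.4%, by construction. Steps of 50 kb, 200 kb or moved by 50 kb gave step correlations of 0.932, 0.955 and 0.952. Steps of 50 and 200 kb gave poor-to-rich ratios of 0.023 and 0.13, and the extreme 10% of steps 0.0094. Steps of 200 kb gave medians of 17.0% and 27.7%. The cause of the other changes was not tested. The longest gap does not use the replicates, so leaving one out gave no value. For 3R minus the other arms, the covered share ran from -2.47 to -1.45 percentage points and the median score from -0.028 to -0.0058 over the alternatives, each with the sign reported. No paired analysis was possible because the inputs, which share replicate numbers with the ChIP samples, had no file used here; 3R was set against the other arms within each replicate. Unknown read depth and the lack of input limit every value.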
